A study of Mus musculus with 87 samples.

Results

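The 35 genes described here encode plasma proteins of complement and of coagulation, which the liver secretes into the blood. They are the protein-coding rows of the deposited table that carry one of 35 gene names, all 35 names were found once, and they stand among 37991 genes of the table, 22707 of them protein-coding. All 35 passed the filter on low values, a log2 RPKM above −1.5 in at least 1 liver, and RPKM, a read count divided by transcript length and library size, is a level per length.

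The study followed transcripts of mouse liver after partial hepatectomy (PH), the removal of most of the liver mass, by RNA-Seq of poly(A)-selected RNA. The animals were C57/BL6 males, 12 to 14 weeks old at the time of surgery, entrained to light and dark cycles with food in the dark only, and each library is 1 liver. Mice whose livers were collected weeks after surgery were older by that time. Surgery under isoflurane anesthesia was at Zeitgeber time (ZT) 2, where ZT0 is the start of the light period, and the sham mice had every step but the resection. The post-PH livers (X) are named by the hours after surgery, or by weeks with a W: X1 (n = 6), X4 (n = 3), X10 (n = 6), X20 (n = 6), X28 (n = 3), X36 (n = 6), X44 (n = 3), X48 (n = 5), X72 (n = 3), X1W (n = 3) and X4W (n = 2). The sham livers (S) were S1 (n = 6), S4 (n = 5), S10 (n = 3), S20 (n = 3) and S48 (n = 3). Livers without surgery were C0 (n = 9, ZT2), C4 (n = 3, ZT6, the time of day of X4, S4 and X28) and C4W (n = 2, the controls of X4W). The 10 h livers are from ZT12, the 36 h livers from ZT14, the 20 and 44 h livers from ZT22, and the 48 and 72 h livers from ZT2. As the study describes them, the livers were collected in 3 periods, and the labels do not say which liver of a group is from which. C0 spans all 3, C4 is from the third alone, and S10, S20, C4W and X4W are from the second alone. S48, X28, X44, X48, X72 and X1W are from the first alone, and X1, S1, S4, X10, X20, X36 and the study's full set of X4 livers, of which 3 are analysed here, from the first and second.

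Complement is a chain of plasma proteases and their substrates that coats microbes and pierces their membranes, and its routes meet at C3. Coagulation is a second chain, in which zymogens cut one another until thrombin, the product of F2, turns fibrinogen into fibrin, held in check by anticoagulants and later undone by plasmin. Hepatocytes make most of these proteins, and several of them rise in the acute-phase response to injury.

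The 80 libraries held 12.2 to 48.8 M reads with a median of 26.7 M, as estimated from the smallest steps of their RPKM values. X28 replicate 2 stood apart, with 41.7% of genes at 0 reads where the median library had 53.0%. The hepatocyte markers fitted the labelled tissue, with Alb at 34620 RPKM in C0. Summed RPKM of 7 macrophage markers ran from 7.26 to 108 over the C0 livers and that of 5 neutrophil markers from 0.306 to 44.7.

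Promoter windows of RefSeq (assembly GRCm38.p6, 250 bases before to 50 bases after the start) were at hand for 27 of the 35 genes. The members without one are Masp1, Plg, Kng1, Cfb, C4b, Proc, C2 and Cfi. Exact matches were sought on both strands. The letters were TTCNNNGAA for STAT factors, TTGCNNAA for C/EBP factors and CAAAGTCCA for HNF4. For HNF1 the 6 letters GTTAAT, which are part of its site, were used. The letters TATAAA stood for the TATA box. The C/EBP letters stood in the windows of 8 genes (29.6%, against 10.8% of all 32851 windows), the HNF1 letters in 6 (22.2% against 7.10%), the STAT letters in 5 (18.5% against 8.30%), the TATA letters in 3 (11.1% against 13.6%) and the HNF4 letters in 0 (against 0.475%). A match is a description of letters and not a site of binding.

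The 250 bases before the start are shown for 3 genes that rose after surgery and for Klkb1, the member with the widest range of levels. They lie at chr17:57228137-57228386 for C3, chr1:130661619-130661868 for C4bp and chr8:45294836-45295085 for Klkb1, all on the minus strand, and at chr16:62854057-62854306 on the plus strand for Pros1. They are written 5′ to 3′ along the gene, and capitals mark the matches: C/EBP in C3, the HNF1 letters in C4bp, STAT in Pros1, and C/EBP followed by the TATA letters, both on the other strand, in Klkb1. The C3 match starts 45 bases before the start, that of C4bp 64, that of Pros1 92 and those of Klkb1 177 and 132 bases before it.
C3: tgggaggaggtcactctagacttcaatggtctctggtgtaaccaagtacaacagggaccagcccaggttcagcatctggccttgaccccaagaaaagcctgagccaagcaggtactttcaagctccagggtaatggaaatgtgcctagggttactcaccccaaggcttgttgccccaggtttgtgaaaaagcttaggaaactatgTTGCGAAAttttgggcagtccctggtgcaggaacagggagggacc
C4bp: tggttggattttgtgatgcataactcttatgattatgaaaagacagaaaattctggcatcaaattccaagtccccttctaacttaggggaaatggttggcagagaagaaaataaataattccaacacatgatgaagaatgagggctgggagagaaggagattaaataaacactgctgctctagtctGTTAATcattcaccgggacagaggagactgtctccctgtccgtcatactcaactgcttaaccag
Pros1: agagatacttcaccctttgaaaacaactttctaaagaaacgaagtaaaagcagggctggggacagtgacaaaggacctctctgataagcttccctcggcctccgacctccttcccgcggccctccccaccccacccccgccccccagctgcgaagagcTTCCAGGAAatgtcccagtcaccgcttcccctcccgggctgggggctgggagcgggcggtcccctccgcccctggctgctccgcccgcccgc
Klkb1: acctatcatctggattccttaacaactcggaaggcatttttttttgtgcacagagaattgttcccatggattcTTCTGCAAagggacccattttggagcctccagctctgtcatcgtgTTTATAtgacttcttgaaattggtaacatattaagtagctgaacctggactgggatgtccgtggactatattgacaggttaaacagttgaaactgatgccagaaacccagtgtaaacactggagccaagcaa

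In resting livers the 35 transcripts spanned a wide range of levels. Ahsg, which encodes the mineral-binding glycoprotein fetuin-A, was highest at 4169 ± 312 RPKM (SD, n = 9) and Cfb, the protease subunit of the alternative C3 convertase, was lowest at 0.420 ± 0.207. Below Ahsg came Apoh (beta-2-glycoprotein I, 1079 ± 96.8), Vtn (vitronectin, 1029 ± 118) and C3 (980.7 ± 188), and the means ± SD of these 3 overlapped. The overlap of neighbours went on down the order in all but 7 steps, namely below Ahsg, Kng1, C8b, F11, Masp1, Pros1 and Klkb1. At the lower end stood Pros1 (9.55 ± 1.28), C2 (5.68 ± 0.908) and Klkb1 (5.60 ± 1.04).

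The values of 3 genes are less certain than the others. C2 and Cfb share 40.8% and 79.5% of their exon bases with Gm20547 on the same strand, and Gm20547 is listed at 0 in every liver. How reads in shared bases were counted is not given, so this 0 need not mean a silent gene. The levels of C2 and Cfb may be understated. Klkb1 shares 10.5% of its exon bases with Cyp4v3, whose level in C0 was 57.8 ± 7.08 RPKM (SD, n = 9). C4b has a near-identical copy, C4a, with which it may share reads.

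Together the 35 genes made up 2.12% ± 0.227 of the summed RPKM of a library in C0 (SD, n = 9). This share was 3.28% ± 0.239 in S48 (n = 3), 3.91% ± 0.296 in X36 (n = 6), 3.74% ± 0.368 in X48 (n = 5), 2.79% ± 0.215 in X1W (n = 3) and 2.09% ± 0.0653 in X4W (n = 2), where C4W had 1.81% ± 0.0346. Every liver of S48, X36 and X48 lay above every C0 liver, the highest of which was at 2.36%. Without Ahsg and C3 the shares were 1.28% in C0, 1.18% in X10, 1.84% in S48 and 1.70% in X48. Ahsg had its highest mean in X36, at 9354 ± 1764 RPKM (n = 6). In bulk tissue, fewer cells of a type and less RNA per cell cannot be told apart.

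**Figure D1:**
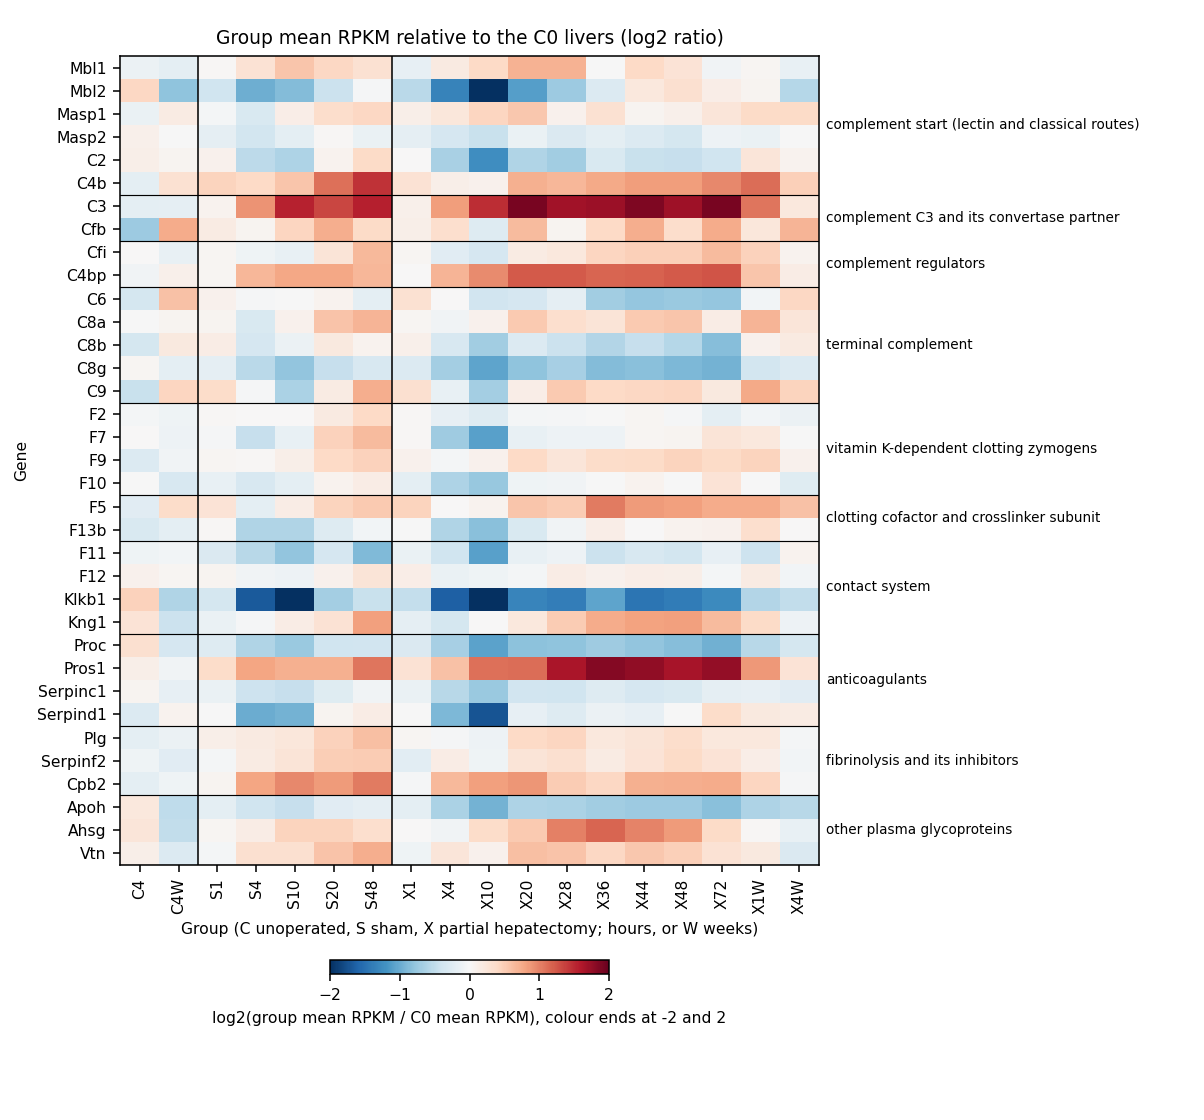
Heat map of the 35 genes (rows, by role) in 18 groups (columns, C without surgery, S sham and X PH). Colour gives the log2 ratio of the group mean RPKM to the C0 mean, red higher and blue lower, with the colour scale ending at −2 and 2, and C3, C4bp and Pros1 are red from 10 h to 1 week after PH while Klkb1 is blue.

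Across the 19 groups the highest group mean was between 1.31 times (F12, the zymogen that starts the contact pathway) and 19.4 times (Klkb1, plasma prekallikrein) the lowest one, with a median of 2.24 times over the members. The ratio was 2 or more for 24 of the 35 genes. Among the PH groups, 19 of the 35 genes had their lowest mean in X10 and none had its highest there. F2 belongs to the 19, but moved little, with PH means between 229.8 RPKM in X10 and 282.2 in X44. Among the PH groups up to 72 h, X10 alone is from ZT12. The shares of all genes with such a ratio or with their lowest mean in X10 are not given here. These counts therefore describe the members alone.

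The first question was what resection adds to the surgery itself, and for this PH was set against sham at the same hour. Calls needed a difference of over 0.5 in mean log2(RPKM + 0.25) together with an adjusted p (limma, Benjamini-Hochberg over 15396 genes) under 0.05, and the added 0.25 makes changes of low genes such as Klkb1, C2 and Cfb look smaller than they are. At 1 h (X1 minus S1), limma called 0 of the 35 members, where 0.650% of all genes were called (0.624% higher and 0.0260% lower), and 0 members had an adjusted p below 0.05 at any size of difference. At 4 h (X4 minus S4), 1 member was called, where 8.64% of all genes were (3.16% higher and 5.48% lower). It was Masp1, a protease bound to the mannose-binding lectins, at 21.7 ± 2.18 RPKM in X4 (SD, n = 3) and 15.1 ± 1.03 in S4 (n = 5), a log2 difference of 0.51 ± 0.13 (SE, adjusted p = 0.00311). The call was lost with a pseudocount of 1 (0.49) and without S4 replicate 1 (0.50, under the limit before rounding), S4 replicate 3 (0.48), X4 replicate 5 (0.45) or X4 replicate 6 (0.49). S4 holds livers of the first and second periods, and the periods of the X4 livers analysed are not labelled. Period can therefore enter this comparison.

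At 10 h the members that differed were all lower after PH. Of the 35 genes, 7 were called lower and 0 higher in X10 against S10, where 7.02% of all genes were called 3.40% higher and 3.62% lower. The 7 were Mbl2, F7, Klkb1, Serpind1, C8b, C2 and F10, the livers of both groups did not overlap for any of them, and all 7 calls also stood with libraries scaled to a common median or to TPM (which makes every library sum to the same total). The median difference of the members was −0.26, beside −0.0049 for all genes. The remaining 28 members were not called, although 7 of them had an adjusted p below 0.05 at a smaller difference.

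Mbl2, a lectin that recognises sugars on microbes and starts the lectin route of complement, lies at chr19:30307418-30314175 (mm9, as are the gene positions that follow). It stood at 159.9, 155.0 and 138.5 RPKM in the S10 livers, and in the 6 X10 livers its lowest, median and highest values were 49.97, 65.0 and 82.4. Every X10 liver was thus far below every S10 liver. The log2 difference was −1.21 ± 0.25 (SE, adjusted p = 0.000586). This was the largest fall among the members on the scale of log2(RPKM + 0.25), which makes the fall of Klkb1 look smaller than it is.

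F7 (chr8:13026034-13035809) encodes the zymogen that tissue factor activates to begin clotting. Its S10 livers were at 30.35, 33.9 and 36.4 RPKM, and its X10 livers ran from 13.4 over a median of 16.8 to 23.2. The groups were separate, with a log2 difference of −0.97 ± 0.13 (adjusted p = 2.6e-07). F10, the protease of the step before thrombin, was lower by less (−0.57 ± 0.09, adjusted p = 1e-05), from 119.9 ± 4.41 RPKM in S10 (n = 3) to 81.2 ± 10.7 in X10 (n = 6).

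Klkb1 (chr8:46354796-46393820) encodes plasma prekallikrein, which activates F12 and frees bradykinin from kininogen. The S10 livers held 0.979, 1.03 and 1.005 RPKM, already far under the 5.60 ± 1.04 of C0, and the X10 livers held 0.273 at the lowest, 0.380 at the median and 0.520 at the highest. No X10 liver reached an S10 liver. The log2 difference was −0.97 ± 0.17 (adjusted p = 5.89e-05). Cyp4v3, with which it shares exon bases, was at 29.9 ± 1.89 RPKM in S10 and 25.1 ± 4.01 in X10.

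Serpind1, heparin cofactor II, an inhibitor of thrombin, was at 104.7 ± 2.63 RPKM in S10 and 61.2 ± 13.3 in X10 (log2 difference −0.80 ± 0.15, adjusted p = 0.000137). C2, the protease subunit of the classical C3 convertase, was at 3.36, 3.60 and 4.12 RPKM in S10 and between 1.94 and 3.10 (median 2.30) in X10, so the groups did not overlap (−0.59 ± 0.13, adjusted p = 0.00078). C8b, a chain of the complement pore, was at 114.7, 117.3 and 130.0 RPKM in S10 and between 65.0 and 107.2 (median 78.1) in X10, again without overlap (−0.60 ± 0.18, adjusted p = 0.0165). The call of C8b was lost without S10 replicate 2 (−0.62, adjusted p = 0.0553) or S10 replicate 3 (−0.55, adjusted p = 0.0977), and with X10 livers 1 to 3 alone (−0.56, adjusted p = 0.0614).

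The central genes of each chain moved less. C3 was at 2582, 2830 and 3168 RPKM in S10 and between 2407 and 3110 (median 2732) in X10, and the groups overlapped (−0.07 ± 0.16, adjusted p = 0.865). F2 was at 258.2, 285.6 and 286.3 RPKM in S10 and between 212.3 and 242.6 (median 231.3) in X10. All X10 livers were lower, by a log2 difference of −0.27 ± 0.08 (adjusted p = 0.0262) that stayed inside the limit. Serpinc1, antithrombin, the main inhibitor of thrombin, was at 600.0, 608.4 and 595.3 RPKM in S10 and between 451.6 and 564.4 (median 499.1) in X10, with the same kind of small difference (−0.28 ± 0.08, adjusted p = 0.0191).

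**Figure D2:**
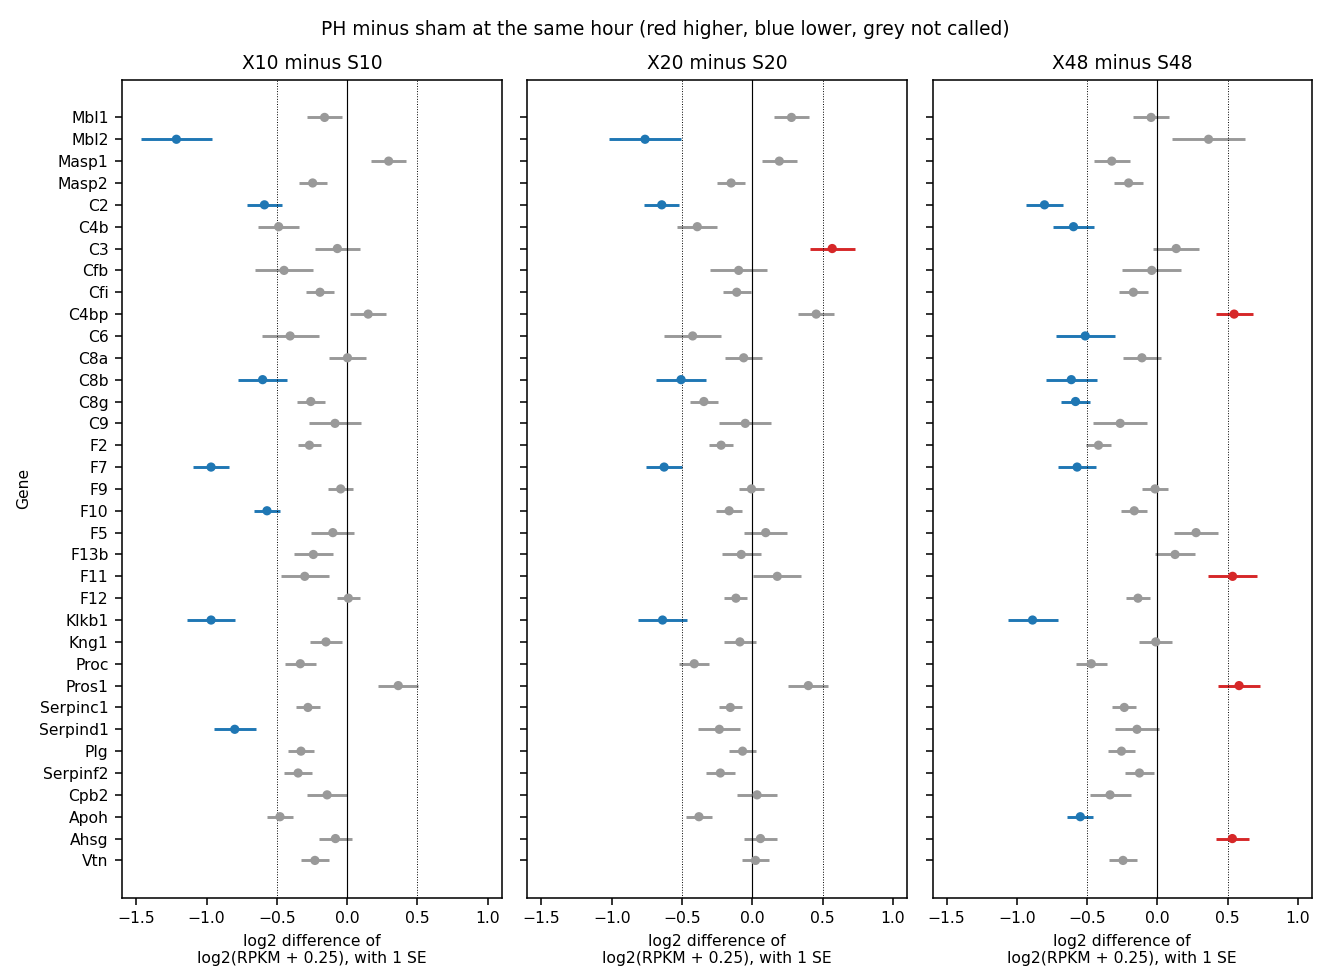
PH minus sham for the 35 genes at 10, 20 and 48 h, as the difference of mean log2(RPKM + 0.25) (horizontal axis) with 1 SE, dotted lines at −0.5 and 0.5. Blue points are genes called lower (7, 5 and 8 at the 3 times) and red points genes called higher (0, 1 and 4).

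At 20 h 6 members were called, and C3 was the one that was higher. Of the 35 genes, 1 was called higher and 5 lower in X20 against S20 (7.11% of all genes called, 4.49% higher and 2.61% lower). The split was 0 higher and 6 lower with libraries scaled to a common median and 2 higher and 3 lower with TPM. The count rested on single livers: it was 2 without S20 replicate 2 and 4 without S20 replicate 1 or without X20 replicate 4, 5 or 6. It was 1 with X20 livers 1 to 3 alone (C2) and 9 with X20 livers 4 to 6 alone. X20 holds livers of 2 periods and S20 of 1, so period can enter this comparison, and likewise that of X10 with S10.

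C3 was at 2635, 2172 and 2595 RPKM in S20 and between 3198 and 4262 (median 3532) in X20. All 6 X20 livers were higher, by a log2 difference of 0.57 ± 0.16 (adjusted p = 0.0112), and without S20 replicate 2 it was 0.48 (adjusted p = 0.0967). Median scaling also took it under the limit, at 0.48, as did X20 livers 1 to 3 alone, at 0.47 (adjusted p = 0.0746). C2 was at 5.96, 6.49 and 5.42 RPKM in S20 and between 3.35 and 4.18 (median 3.65) in X20. Its livers did not overlap (−0.64 ± 0.13, adjusted p = 0.000361), and the call stood in both sets of X20 livers.

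Klkb1 was at 3.25, 3.97 and 3.29 RPKM in S20 and between 1.25 and 3.195 (median 2.13) in X20. The highest X20 liver lay just under the lowest S20 liver (−0.64 ± 0.17, adjusted p = 0.00866), and without S20 replicate 2 the difference was −0.55 (adjusted p = 0.0774). It was −0.31 (adjusted p = 0.254) with X20 livers 1 to 3 alone and −0.96 (adjusted p = 0.000277) with livers 4 to 6 alone. For Mbl2 the S20 livers were at 204.5, 228.2 and 176.3 RPKM and the X20 livers were unlike one another, with livers 1 to 3 at 164.2, 176.7 and 182.2 and livers 4 to 6 at 99.2, 86.7 and 62.1. The difference over all 6 was −0.76 ± 0.25 (adjusted p = 0.035), that of livers 1 to 3 alone was −0.21 (adjusted p = 0.646) and that of livers 4 to 6 alone −1.31 (adjusted p = 0.000651). The call for Mbl2 was also lost without S20 replicate 1 (−0.75, adjusted p = 0.119), without S20 replicate 2 (−0.67, adjusted p = 0.154), without X20 replicate 4 (−0.71, adjusted p = 0.0599), 5 (−0.67, adjusted p = 0.0711) or 6 (−0.58, adjusted p = 0.123), with TPM (−0.67, adjusted p = 0.0714) and with no filter on low values (adjusted p = 0.0849).

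F7 was at 55.2, 48.4 and 49.9 RPKM in S20 and between 26.4 and 40.5 (median 33.8) in X20, without overlap (−0.63 ± 0.13, adjusted p = 0.000731). With X20 livers 1 to 3 alone the difference was −0.41 (adjusted p = 0.0454, under the limit) and with livers 4 to 6 alone −0.85 (adjusted p = 3.81e-05). C8b was at 166.1, 139.4 and 143.2 RPKM in S20 and between 69.7 and 131.0 (median 110.1) in X20, also without overlap (−0.51 ± 0.18, adjusted p = 0.0451). Its difference was −0.23 (adjusted p = 0.457) with X20 livers 1 to 3 alone and −0.78 (adjusted p = 0.0073) with livers 4 to 6 alone. Its call was lost without any 1 of S20 replicates 1, 2 and 3 or X20 replicates 4, 5 and 6 (−0.55 to −0.39, adjusted p from 0.0636 to 0.222), and with TPM (−0.42, adjusted p = 0.117). F2 (336.0, 301.8 and 294.2 RPKM in S20, 245.9 to 280.2 with a median of 269.6 in X20) and Serpinc1 (702.1, 712.2 and 688.8 in S20, 553.5 to 703.1 with a median of 629.9 in X20) were not called, with differences of −0.22 ± 0.08 (adjusted p = 0.0698) and −0.16 ± 0.08 (adjusted p = 0.224).

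At 48 h members differed in both directions. Of the 35 genes, 4 were called higher (Pros1, C4bp, F11 and Ahsg) and 8 lower (Klkb1, C2, C8b, C4b, C8g, F7, Apoh and C6) in X48 against S48. Of all genes 27.2% were called, 24.5% higher and 2.69% lower, so the share of members called lower, 8 of 35, stood above the background and the share called higher, 4 of 35, below it. The median difference was −0.17 for the members and 0.27 for all genes. Scaling the libraries to a common median lowered every difference of this comparison by about 0.49, and 0 members were then higher and 26 lower. With TPM 4 were higher and 4 lower. The shares of all genes given here are from the RPKM as deposited, so these splits stand without a share of their own. Under all 3 scalings Klkb1, C2, C8b and C4b were lower.

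Pros1 (chr16:62854133-62929172) encodes protein S, the cofactor of the anticoagulant protein C. It was at 20.3, 21.1 and 18.45 RPKM in S48 and at 28.05, 31.1, 29.0, 29.4 and 32.4 in X48, so that all 5 X48 livers were above all S48 livers. The log2 difference was 0.58 ± 0.15 (adjusted p = 0.00094), and 0.09 (adjusted p = 0.729) after median scaling. C4bp (chr1:132531350-132558209) encodes the C4b-binding protein, which breaks down the classical C3 convertase. It stood at 219.6, 245.7 and 212.4 RPKM in S48 and at 390.8, 317.9, 309.9, 277.3 and 362.4 in X48, again without overlap. Its difference was 0.55 ± 0.13 (adjusted p = 0.000525), 0.48 (under the limit) without X48 replicate 1 and 0.05 (adjusted p = 0.832) after median scaling.

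F11 (chr8:46326524-46347385), the zymogen that activates F9, was at 21.5, 13.1 and 21.8 RPKM in S48 and at 30.8, 25.6, 28.5, 22.04 and 27.15 in X48. The lowest X48 liver lay just above the highest S48 liver. The difference of 0.535 ± 0.18 (adjusted p = 0.0104) rested on S48 replicate 2, without which it was 0.30 (adjusted p = 0.226), and on X48 replicate 1, without which it was 0.48, under the limit, and it was 0.05 (adjusted p = 0.896) after median scaling. Ahsg was at 7557 ± 651 RPKM in X48 (n = 5) and 5236 ± 684 in S48 (n = 3; 0.53 ± 0.12, adjusted p = 2e-04), with 0.04 after median scaling and 0.44 (under the limit) without S48 replicate 1.

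Klkb1 had the largest fall among the members at 48 h, from 3.66, 4.63 and 4.07 RPKM in S48 to 2.16, 2.61, 2.159, 1.83 and 1.834 in X48. Every X48 liver was lower (−0.89 ± 0.18, adjusted p = 3.93e-05). C2 (chr17:34999549-35035397) was at 7.92, 7.45 and 6.77 RPKM in S48 and at 4.32, 4.855, 3.85, 3.91 and 3.72 in X48, also without overlap (−0.80 ± 0.13, adjusted p = 6.53e-07). C8b (chr4:104438922-104477153) was at 168.3, 115.7 and 124.6 RPKM in S48 and at 84.1, 95.05, 94.0, 80.6 and 86.3 in X48. All X48 livers were lower (−0.61 ± 0.18, adjusted p = 0.00457), and the call was lost without S48 replicate 1 (−0.45, adjusted p = 0.0825).

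The other members called lower were C4b, the substrate of the first proteases of the classical and lectin routes (−0.60 ± 0.15, adjusted p = 0.000745), C8g (−0.58 ± 0.10, adjusted p = 4.41e-06) and C6 (−0.51 ± 0.21, adjusted p = 0.0396) of the terminal complex, F7 (−0.57 ± 0.13, adjusted p = 0.000387) and Apoh (−0.55 ± 0.09, adjusted p = 2.05e-06). C6 was at 72.7, 45.7 and 46.6 RPKM in S48 and at 30.3, 39.8, 36.8, 43.7 and 38.4 in X48. Its call was lost without S48 replicate 1 (−0.30, adjusted p = 0.353), without X48 replicate 1 (−0.44, adjusted p = 0.1), 3 (−0.51, adjusted p = 0.0572) or 5 (−0.52, adjusted p = 0.0523), and with TPM (−0.42, adjusted p = 0.0941). Without S48 replicate 1 the calls fell from 12 to 9, with C6, C8b and Ahsg lost. The call of Apoh was lost without S48 replicate 2 (−0.49, under the limit). With TPM, Apoh (−0.46), C8g (−0.49) and F7 (−0.48) also stayed inside the limit. Both chains of the C8 pore that were called, C8b and C8g, were lower, whereas the third chain C8a (−0.11 ± 0.14, adjusted p = 0.55) and C9 (−0.26 ± 0.19, adjusted p = 0.268) were not called. F7 was at 55.1, 60.7 and 56.1 RPKM in S48 and at 39.5, 42.7, 41.5, 34.4 and 34.9 in X48. The mean was 37.1 ± 3.88 in C0, 57.3 ± 3.01 in S48 and 38.6 ± 3.80 in X48, and X48 was not tested against C0.

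The central genes again stood closer. C3 was at 2658, 3174 and 2775 RPKM in S48 and at 4098, 3471, 3003, 2480 and 2876 in X48, and the groups overlapped (0.13 ± 0.16, adjusted p = 0.545, and −0.36 with adjusted p = 0.105 after median scaling). F2 was at 345.8, 395.1 and 338.5 RPKM in S48 and at 287.5, 271.6, 297.5, 239.2 and 250.7 in X48 (−0.42 ± 0.09, adjusted p = 6.87e-05), lower in every X48 liver but inside the limit. Serpinc1 was at 756.2, 836.4 and 770.1 RPKM in S48 and at 687.4, 729.5, 678.1, 640.5 and 611.9 in X48 (−0.24 ± 0.09, adjusted p = 0.0214), also lower in every liver and inside the limit. After median scaling both passed it, at −0.91 and −0.73.

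Markers of other cells also moved in this comparison. Of 6 stellate cell markers 4 were called higher in X48 than in S48, 3 of them after median scaling, and 0 lower. Their summed level was 58.3 to 107 RPKM in X48 and 46.0 to 49.9 in S48. None of the 6 was at 0 in any liver, Col1a1 had a mean of 7.56 RPKM in X48 and 0.613 in S48, and Dcn made up most of the sum. Of the 6 hepatocyte markers 2 were called lower and 0 higher, with a summed level of 31540 to 36800 RPKM in X48 and 36160 to 45810 in S48. The part of these cells in the results above was not tested.

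Whether the PH effect itself changed between 10 and 48 h was tested as a contrast of the differences, whose 2 times are from different periods in part. Of the 35 genes 5 passed, 4 of them with a more positive and 1 with a more negative difference at 48 h (23.1% of all genes passed, 21.7% more positive and 1.38% more negative). Mbl2 changed most, by 1.58 ± 0.36 (SE, adjusted p = 0.000642), from −1.21 at 10 h to 0.36 at 48 h, where its S48 livers (233.2, 357.2 and 221.4 RPKM) and X48 livers (271.5 to 405.5) overlapped. F11 changed by 0.84 ± 0.25 (adjusted p = 0.00749), Serpind1 by 0.65 ± 0.21 (adjusted p = 0.0172), Ahsg by 0.62 ± 0.17 (adjusted p = 0.00352) and Masp1 by −0.62 ± 0.18 (adjusted p = 0.006). F11 was lost without S10 replicate 3 (0.59, adjusted p = 0.0815) or S48 replicate 2 (0.60, adjusted p = 0.072), and Serpind1 without S48 replicate 1 (0.60, adjusted p = 0.0572). Median scaling turned the split to 1 more positive and 11 more negative.

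The second question was what surgery did with and without resection, measured against livers without surgery. At 48 h after sham, at the same ZT2 as C0, 14 of the 35 genes were called higher and 1 lower, where 8.88% of all genes were called, 3.83% higher and 5.05% lower. The median difference was 0.38 for the members and −0.03 for all genes. The 14 calls stood under both other scalings, with 14 higher and 1 lower after median scaling and 18 higher and 1 lower with TPM. The replicate sets of C0 gave 10 higher with C0 livers 1 to 3, 14 with 4 to 6 and 18 with 7 to 9.

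C3 rose most in S48, from 655.8 at the lowest, 1070 at the median and 1165 at the highest in C0 to 2658, 3174 and 2775 RPKM, without overlap (1.57 ± 0.15, adjusted p = 1.17e-12). C4b followed, from 157.3 ± 34.3 RPKM (n = 9) to 426.3 ± 37.3 (n = 3; 1.47 ± 0.14, adjusted p = 4.31e-13). Pros1 rose from a C0 range of 7.06 to 11.3 (median 9.61) to 20.3, 21.1 and 18.45 RPKM (1.05 ± 0.13, adjusted p = 1.5e-08).

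The other 11 rises were Cpb2, a carboxypeptidase that slows fibrinolysis, Kng1, the kininogen, Vtn, C9, C8a, C4bp, Cfi, a protease that cleaves C3b and C4b, F7, Plg, the zymogen of plasmin, F5, the cofactor of F10, and Serpinf2, the plasmin inhibitor. They ran from 0.52 (Serpinf2) to 1.05 (Cpb2). F11 was the 1 gene lower, with C0 between 28.9 and 38.9 (median 35.8) and S48 at 21.5, 13.1 and 21.8 RPKM (−0.90 ± 0.16, adjusted p = 3.62e-05). Its livers did not overlap.

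**Figure D3:**
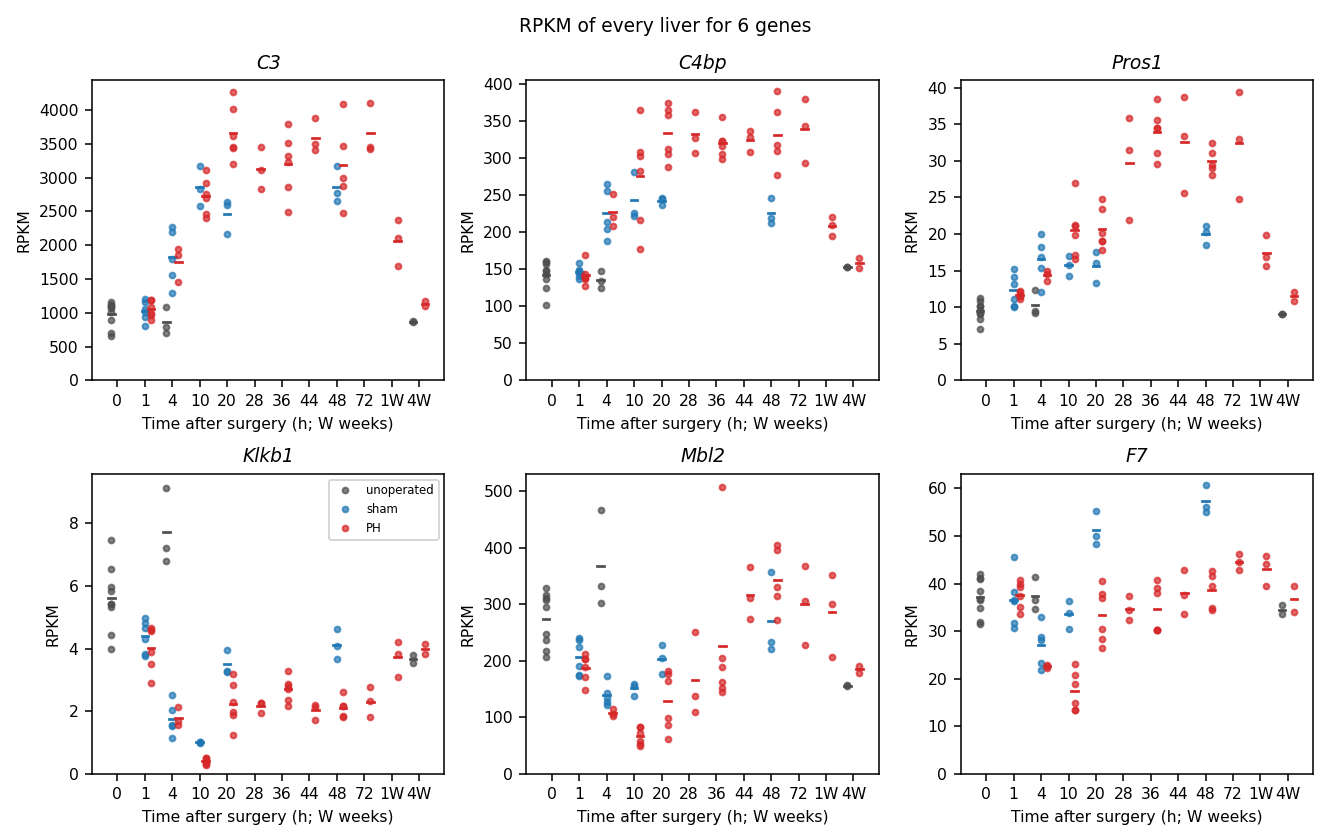
RPKM of every liver (points) and group means (bars) for 6 genes against time after surgery, without surgery in grey, sham in blue and PH in red, each vertical axis starting at 0. The S48 livers of C3 lie between 2658 and 3174 RPKM, inside the range of the X48 livers, whereas the X48 livers of Pros1 and C4bp lie above and those of Klkb1 and F7 below the S48 livers.

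At 4 h both surgeries were set against C4 livers of the same time of day. The comparisons share the C4 livers and are not independent of each other. C4 is from another period than S4, X4 and X28, so surgery and period cannot be told apart in any comparison with it. After sham 5 members were called higher and 7 lower (43.3% of all genes called, 12.2% higher and 31.0% lower). After PH 4 were called higher and 11 lower (45.6% of all genes, 11.7% higher and 33.9% lower). Scaling decided these splits: with a common median they were 11 higher and 4 lower for sham and 13 higher and 4 lower for PH, and with TPM 9 and 4 for sham and 6 and 7 for PH.

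C3 rose to 1825 ± 415 RPKM in S4 (n = 5; 1.08 ± 0.16, adjusted p = 9.12e-08) and 1753 ± 259 in X4 (n = 3; 1.04 ± 0.18, adjusted p = 2.12e-06) from 860.9 ± 201 in C4 (n = 3). Cpb2 rose by 0.98 ± 0.15 after sham (adjusted p = 5.93e-08) and by 0.85 ± 0.16 after PH (adjusted p = 1.05e-05), and C4bp by 0.73 ± 0.13 (adjusted p = 3.65e-06) and 0.745 ± 0.15 (adjusted p = 1.73e-05). Klkb1 fell from 7.20, 9.148 and 6.795 RPKM in C4 to 1.14, 1.57, 1.52, 2.50 and 2.03 in S4 and to 1.56, 2.13 and 1.70 in X4. No operated liver came near a C4 liver. The differences were −2.02 ± 0.18 for sham (adjusted p = 8.52e-15) and −1.96 ± 0.20 for PH (adjusted p = 9.2e-13).

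Mbl2 fell from 331.7, 467.5 and 303.0 RPKM in C4 to between 122.3 and 173.3 in S4 (−1.38 ± 0.26, adjusted p = 8.56e-06) and to 115.4, 106.4 and 102.9 in X4 (−1.74 ± 0.29, adjusted p = 8.16e-07). Proc, the anticoagulant protein C, fell from 291.3 ± 3.75 RPKM in C4 to 154.7 ± 24.3 in S4 (−0.93 ± 0.11, adjusted p = 2.12e-10) and 147.2 ± 4.81 in X4 (−0.98 ± 0.13, adjusted p = 9.07e-10). The other falls after PH alone among the calls, F7, F10, Kng1 and Serpinc1, were not called between X4 and S4.

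Markers of several cell types were also lower at 4 h than in C4. Of 6 stellate cell markers 5 were called lower after sham and 5 after PH, with a summed level of 72.1 to 84.5 RPKM in C4, 31.2 to 48.8 in S4 and 36.3 to 47.6 in X4. Of 7 macrophage markers 3 were lower after sham and 5 after PH (21.5 to 29.5 RPKM in C4, 7.60 to 20.6 in S4 and 8.27 to 10.02 in X4). All 4 B cell markers were lower after both (2.46 to 4.39 RPKM in C4, 0.0909 to 0.719 in S4 and 0.155 to 0.302 in X4). Each B cell marker was at 0 in 1 to 6 of the 80 livers, and no stellate cell or macrophage marker was at 0 in any. Of the 6 hepatocyte markers 3 were lower and 1 higher after both, with sums of 49010 to 52340 RPKM in C4, 33560 to 45950 in S4 and 35160 to 37970 in X4. Of 4 neutrophil markers tested, 2 were higher after sham and 0 after PH. The part of these cells in the values of the members was not tested.

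At 10 h after sham, 6 members were called higher and 9 lower against C0 (29.1% of all genes, 17.9% higher and 11.2% lower), or 3 and 11 after median scaling and 7 and 6 with TPM. S10 is from ZT12 and C0 from ZT2, so time after surgery and time of day cannot be told apart here. The largest rises were C3 (1.57 ± 0.15, adjusted p = 2.14e-13), Cpb2 (0.95 ± 0.13, adjusted p = 2.38e-08) and C4bp (0.775 ± 0.12, adjusted p = 2.45e-07). The largest falls were Klkb1 (−2.20 ± 0.16, adjusted p = 9.23e-18), Serpind1 (−0.93 ± 0.14, adjusted p = 1.54e-07) and Mbl2 (−0.84 ± 0.24, adjusted p = 0.00263, and not called with C0 livers 4 to 6 alone at −0.55, adjusted p = 0.151). C4 (ZT6) was also set against C0 (ZT2), both without surgery and differing in period too. There limma called 0 of the 35 genes (7.89% of all genes called, 5.81% higher and 2.08% lower), and 3 members had an adjusted p below 0.05 at a smaller difference. Klkb1 (0.45 ± 0.16, adjusted p = 0.0462) and Proc (0.32 ± 0.10, adjusted p = 0.023) were higher in C4 and F9 lower (−0.26 ± 0.08, adjusted p = 0.0254). Klkb1, Mbl2 and Proc had their highest group means in C4, against which their falls at 4 and 28 h were measured. ZT6 is not the ZT12 of S10, so C4 against C0 does not cover the time of day of S10.

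At 28 h after PH, 11 members were called higher and 6 lower against C4 of the same time of day (32.7% of all genes, 14.4% higher and 18.3% lower), or 15 and 5 with TPM. Of the markers, all 4 of B cells were lower, 3 of 6 of hepatocytes were lower and 1 higher, and their part was not tested. Leaving out X28 replicate 2 gave the same counts, 11 and 6. C3 (1.88 ± 0.18, adjusted p = 1.35e-12), Pros1 (1.49 ± 0.16, adjusted p = 7.77e-11) and C4bp (1.30 ± 0.15, adjusted p = 1.58e-10) rose most. Klkb1 (−1.72 ± 0.20, adjusted p = 2.56e-10), Mbl2 (−1.21 ± 0.29, adjusted p = 0.000563) and Proc (−1.12 ± 0.13, adjusted p = 8.9e-11) fell most.

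From 36 to 72 h PH livers were set against C0, in comparisons that share the C0 livers. At 36 h 7 were called higher and 6 lower (35% of all genes, 25.7% higher and 9.29% lower), at 44 h 11 and 5 (39.2%, 30.8% higher and 8.42% lower) and at 72 h 9 and 6 (33.2%, 26.6% higher and 6.59% lower). With a common median these splits were 5 and 12, 3 and 11 and 4 and 10, and with TPM 13 and 4, 15 and 5 and 17 and 6. The 36 and 44 h livers are from other times of day than C0, and the 72 h livers from the same.

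Pros1, C3 and C4bp led the rises at each of these times. Pros1 was at 29.6 to 38.4 RPKM (median 34.5) in X36 and at 39.4, 32.9 and 24.8 in X72, where C0 had no liver above 11.3, and its differences were 1.81 ± 0.11 (adjusted p = 9.65e-24) at 36 h, 1.73 ± 0.13 at 44 h (adjusted p = 6.43e-18) and 1.72 ± 0.13 at 72 h (adjusted p = 2.1e-17). C3 was higher by 1.72 ± 0.12 (adjusted p = 1.93e-20), 1.90 ± 0.15 (adjusted p = 1.26e-17) and 1.92 ± 0.15 (adjusted p = 1.83e-17), and C4bp by 1.18 ± 0.10 (adjusted p = 2.47e-17), 1.20 ± 0.12 (adjusted p = 2.24e-13) and 1.25 ± 0.12 (adjusted p = 9.22e-14).

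Klkb1, C8g and Proc led the falls. Klkb1 was lower by −0.98 ± 0.13 (adjusted p = 9.98e-10) at 36 h, −1.35 ± 0.16 (adjusted p = 1.04e-10) at 44 h and −1.19 ± 0.16 (adjusted p = 6.71e-09) at 72 h. C8g, the small chain of C8, was at 183.3 ± 14.4 RPKM in C0 (n = 9) and 94.7 ± 19.4 in X72 (n = 3; −0.97 ± 0.09, adjusted p = 1.52e-13), with differences of −0.87 ± 0.07 (adjusted p = 3.2e-16) and −0.85 ± 0.09 (adjusted p = 7.71e-12) at the earlier times. Proc was at 234.3 ± 30.1 RPKM in C0 and 120.0 ± 21.0 in X72 (−0.97 ± 0.10, adjusted p = 2.92e-12), after −0.71 ± 0.08 (adjusted p = 1.12e-11) and −0.78 ± 0.10 (adjusted p = 1.25e-09). Its cofactor Pros1 thus stood above C0 at the times when Proc stood below.

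At 1 week 7 members were still called higher and 3 lower than C0 (16.9% of all genes, 12.4% higher and 4.48% lower), or 5 and 5 after median scaling and 13 and 0 with TPM. The rises were led by C4b (1.15 ± 0.14, adjusted p = 2.91e-09), C3 (1.08 ± 0.15, adjusted p = 9.02e-08) and Pros1 (0.86 ± 0.13, adjusted p = 1.35e-06). The falls were Apoh (−0.62 ± 0.09, adjusted p = 9.16e-08), Klkb1 (−0.55 ± 0.16, adjusted p = 0.00632) and Proc (−0.54 ± 0.10, adjusted p = 3.46e-05). Klkb1 was lost without C0 replicate 1 (−0.50, under the limit) or X1W replicate 1 (−0.43, adjusted p = 0.0819), and both Klkb1 and Proc were lost with C0 livers 4 to 6 alone (−0.39, adjusted p = 0.152, and −0.42, under the limit), and Proc with C0 livers 1 to 3 alone (−0.44, under the limit). With C0 livers 7 to 9 alone 14 members were higher and 3 lower. At 4 weeks limma called 0 members between X4W and C4W, with 2 livers each, where 0.0650% of all genes were called (0.0325% higher and 0.0325% lower), and 0 members had an adjusted p below 0.05 at any size.

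**Figure D4:**
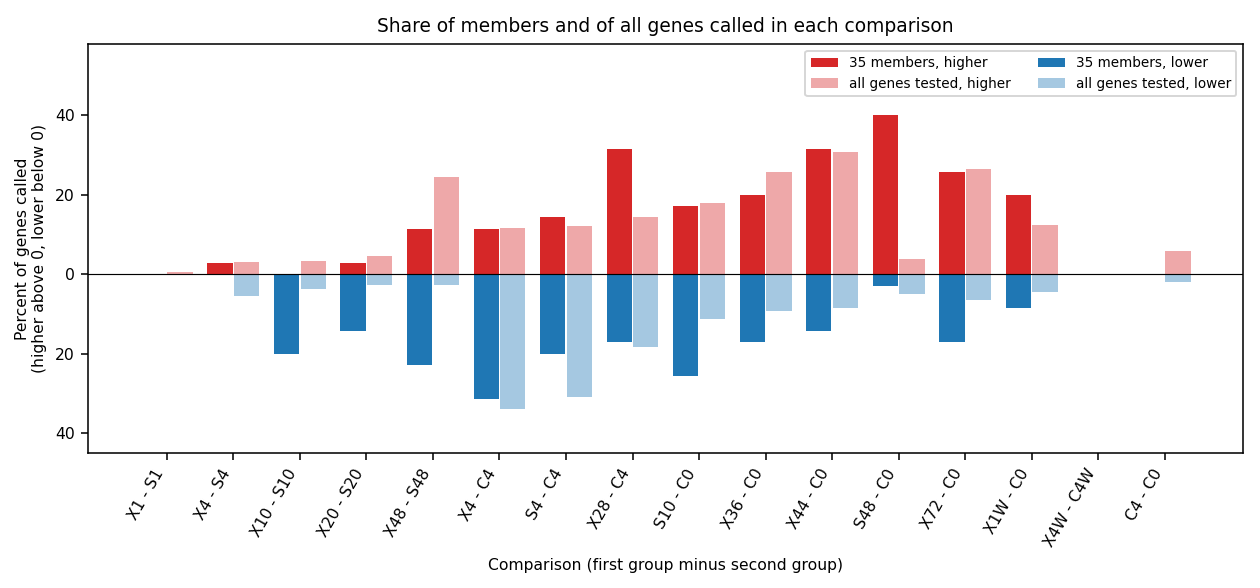
Percent of the 35 members (full colour) and of all 15396 genes tested (pale) called in each of 16 comparisons, higher above 0 and lower below. In S48 against C0 14 of the 35 members and 3.83% of all genes were higher, and in X48 against S48 4 of the 35 members and 24.5% of all genes were.

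The other genes of both chains and of their surroundings were counted in X48 against S48 from lists, beside the 24.5% of all genes called higher there and the 2.69% called lower. Of 51 other genes of complement and coagulation that passed the filter, 6 were higher and 1 lower, or 1 and 17 after median scaling and 8 and 1 with TPM. Among the rises was Thbd, thrombomodulin, which turns thrombin towards protein C (1.16 ± 0.26, adjusted p = 0.00019), and the fall was Cd59b, which blocks the complement pore (−0.72 ± 0.16, adjusted p = 0.000204). Thbd and Cd59b kept their direction under both other scalings.

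Of 6 genes of the vitamin K cycle, which prepares F2, F7, F9, F10, Proc and Pros1 for calcium binding, 4 were higher and 0 lower, or 2 and 1 after median scaling. Nqo1, a quinone reductase, was higher by 1.87 ± 0.26 (adjusted p = 1.5e-08) and Calu, which binds the carboxylase, by 1.15 ± 0.16 (adjusted p = 9.1e-09). The 2 not called were Ggcx (0.22 ± 0.13, adjusted p = 0.168) and Vkorc1 (−0.40 ± 0.13, adjusted p = 0.00792). Vkorc1 was the 1 of the 6 called lower at 10 h (−0.72 ± 0.12, adjusted p = 2.7e-05) and at 20 h (−0.53 ± 0.12, adjusted p = 0.00242). At those times 0 and 1 of the 6 were called higher. Of 16 acute-phase genes 2 were higher and 1 lower, or 0 and 3 after median scaling, with Lcn2 (1.52 ± 0.64, adjusted p = 0.0471) and Serpina3n (0.95 ± 0.25, adjusted p = 0.00122) higher and Saa4 lower (−0.94 ± 0.30, adjusted p = 0.00876). In S48 against C0, where 3.83% of all genes were higher, all 16 were higher under each scaling.

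Of 16 hepatocyte transcription factors 1 was higher and 1 lower, or 0 and 4 after median scaling, namely Foxa1 (0.75 ± 0.28, adjusted p = 0.0239) and Cebpa (−0.86 ± 0.19, adjusted p = 0.000119). Cebpa, a factor that keeps liver cells differentiated, was lower in PH than sham at 10 h (−0.96 ± 0.18, adjusted p = 0.000148) and 20 h (−0.97 ± 0.18, adjusted p = 0.00019) too. Of 20 genes listed for other secreted proteins of hepatocytes 1 was higher (Itih2, 0.60 ± 0.11, adjusted p = 1.51e-05) and 4 lower, or 0 and 14 after median scaling. The largest falls were in Serpina6, the cortisol carrier (−1.05 ± 0.37, adjusted p = 0.0168), and Apoa2 (−0.75 ± 0.15, adjusted p = 5.56e-05). The list also holds F2rl1, which encodes a receptor and not a secreted protein. F2rl1 was low (0.255 RPKM in X48 and 0.109 in S48) and was not called.

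By role, the counts against sham at 10, 20 and 48 h stand beside 3.62%, 2.61% and 2.69% of all genes called lower and 3.40%, 4.49% and 24.5% called higher. The 6 genes that start complement (Mbl1, Mbl2, Masp1, Masp2, C2, C4b) gave 2 falls and 0 rises at each of 10, 20 and 48 h against sham, and the 5 terminal genes (C6, C8a, C8b, C8g, C9) 1, 1 and 3 falls and 0 rises. Of the 2 regulators, C4bp and Cfi, C4bp was higher at 48 h. Of the 4 vitamin K-dependent zymogens (F2, F7, F9, F10), 2, 1 and 1 were lower, and F9, which F11 activates, had differences between −0.05 and −0.01. The contact genes (F11, F12, Klkb1, Kng1) gave 1 fall at each time, Klkb1, and 1 rise at 48 h. Among the 4 anticoagulants (Proc, Pros1, Serpinc1, Serpind1) Serpind1 was lower at 10 h and Pros1 higher at 48 h.

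Some members were called at none of these 3 times against sham: Mbl1, the other mannose-binding lectin of mice, Masp2, the protease that cleaves C4, F5 and F13b, the carrier chain of the fibrin crosslinker, F12 and Kng1, Plg, Serpinf2 and Cpb2, Cfb, Cfi, C8a and C9, F2 and F9, Proc and Serpinc1, Masp1 and Vtn. Their differences from sham at these times lay between −0.47 (Proc at 48 h) and 0.30 (Masp1 at 10 h). Proc stayed inside the limit, but at each of these times every PH liver was below every sham liver. Its differences were −0.33 ± 0.11 (adjusted p = 0.0325) at 10 h, −0.41 ± 0.11 (adjusted p = 0.00692) at 20 h and −0.47 ± 0.11 (adjusted p = 0.000435) at 48 h.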

How the data were processed

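Strand-specific poly(A) libraries of single livers were sequenced as single-end reads. According to the methods, the authors trimmed with Cutadapt and prinseq-lite, aligned to mm9 with TopHat 2.0.13 and Bowtie2, used SAMtools 0.1.19, and counted with featureCounts on Ensembl genes, each multi-mapping read split over its positions. The authors deposited log2 RPKM, normalized to length and library size. 80 of 84 columns matched 1 labelled sample, 4 matched none and were not used, and 7 labelled samples are not analysed here.

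The values were returned to RPKM and tested as log2(RPKM + 0.25) with limma 3.58.1 (R 4.3.3), with 1 coefficient for each of 19 groups, a variance trend and Benjamini-Hochberg adjustment over 15396 genes with log2 RPKM above −1.5 in at least 1 library. The script was tested on simulated data. Calls needed an adjusted p below 0.05 and a log2 difference beyond 0.5. Shares of all genes called are from this fit, also where counts under other scalings, sets of livers or limits stand beside them. Every liver is given for 11 members, namely C3, F2, Serpinc1 and the 3 largest called changes in each direction of PH against sham at 10, 20 and 48 h. In other comparisons the 3 largest called changes in each direction are named, and 2 for each list, of which 1 is not reported here. Members and lists were chosen with earlier results of these data known. Alternatives covered pseudocount, filter, scaling, limits, blocks, sets of livers and livers left out in turn. Python 3.11.15, numpy 2.4.6, pandas 2.3.3, scipy 1.17.1 and matplotlib 3.10.9 were used.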

Additional observations from a re-analysis of the deposited data

Results flagged for a closer look

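Of 96 groups of values of the 11 members given in full, 3 held a liver far from the others by Dixon's test, which chance gives in about 1 of 20 groups. F11 was at 27.2 RPKM in S4 replicate 1 (others 21.7 to 23.1), and C8b was at 71.09 in the same liver (others 109.3 to 114.5). Mbl2 was at 508.5 in X36 replicate 2 (others 144.4 to 205.3).

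The difference of PH from sham itself differed between 10 and 48 h in 5 members (limma, adjusted p). The change was 1.58 for Mbl2 (adjusted p = 0.000642), 0.84 for F11 (adjusted p = 0.00749), 0.65 for Serpind1 (adjusted p = 0.0172), 0.62 for Ahsg (adjusted p = 0.00352) and −0.62 for Masp1 (adjusted p = 0.006).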

How the results depend on the processing

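Of 1876 values of named members under an alternative, 1778 kept direction and side of the limits, 89 lost and 6 gained a call, and 3 changed sign, all of them C3 where it was not called: −0.36 in X48 against S48 after median scaling, and 0.0014 with X10 livers 1 to 3 alone and 0.0072 without S10 replicate 3 in X10 against S10 (range −0.14 to 0.0072 over livers left out). Counts of called members that moved by over 1.5 times were as follows. A pseudocount of 1 gave 0 for X4 against S4. Median scaling gave 26 for X48 against S48, 1 for C4 against C0 and 12 for the change from 10 to 48 h, and TPM 23 for X72. With no fold limit the counts were 2 (X4 against S4), 14 (X10), 10 (X20), 22 (S4 against C4), 26 (X36), 26 (X44), 24 (S48 against C0), 24 (X72), 19 (X1W) and 3 (C4 against C0). With a limit of 1 they were 0 (X4 against S4), 1 (X10), 0 (X20), 0 (X48), 3 (X4 against C4), 3 (S4 against C4), 6 (X28), 2 (S10), 5 (X36), 5 (X44), 4 (S48), 4 (X72), 2 (X1W) and 1 (the change). X20 against S20 gave 3 at an adjusted p limit of 0.01, 3 fitted alone and 1 with X20 livers 1 to 3. C4 against C0 gave 4 with C0 livers 1 to 3 and 2 with 4 to 6, X1W 17 with C0 livers 7 to 9, and X1 against S1 1 with livers 1 to 3. Leaving out each liver gave 0 to 1 for C4 against C0, 0 to 1 for X4 against S4 and 2 to 6 for X20 against S20, the 2 without S20 replicate 2. Same-numbered livers had correlated deviations between −0.19 and 0.30. No comparison was over 0.1 in every pair, but X36 against C0 was in 4 of 6 pairs. The fit did not pair livers, and whether the numbers stand for something the livers share was not tested. A replicate block gave 4 for C4 against C0, 4 for X20 against S20 and 11 for S48 against C0. The causes were not tested. With 2 or 3 livers in many groups and shared C0 and C4 livers, small differences are not detectable. RPKM is relative to the library, so changes of all other transcripts move it.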
